A study of Mus musculus with 4 samples.

Results

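The 10 genes described here make the proteins that bundle, cap or anchor actin filaments in stereocilia, the rigid protrusions on the apical surface of hair cells. They were chosen by symbol: Espn, Espnl, Fscn1, Fscn2, Pls1, Pls3, Eps8, Eps8l2, Triobp and Xirp2. All 10 were found among the 23420 genes of the deposited tables, and all 10 were among the 16076 genes tested, those with at least 100 reads over the 12 replicates.

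RNA came from cochleae of postnatal day 1 Atoh1-GFP transgenic mice on a CD1 background, in which GFP marks hair cells. Organs were kept in culture overnight at low oxygen, and treated organs then received 0.5 mM gentamicin, an aminoglycoside antibiotic, for 3 h. Cells were dissociated and sorted into GFP-positive hair cells and GFP-negative non-hair cells, a mixture of supporting cells, cells of the greater and lesser epithelial ridges and surrounding tissue, with cells of low GFP left out. The 4 groups were control hair cells, gentamicin-treated hair cells, control non-hair cells and gentamicin-treated non-hair cells, with 3 replicates each. All 4 groups carry the transgene, and inner and outer hair cells were sorted together. The deposited value is a normalized read number for each gene, scaled per replicate, with 1 added, and 22395037 to 28146016 reads fell on genes in each replicate. It is not divided by gene length, so genes are compared with one another below only per kilobase.

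A stereocilium holds a core of parallel actin filaments that cross-linking proteins (espins, fascins and plastins) hold together. Proteins at its tip, among them the Eps8 family, control how long the filaments grow, and at its base the filaments taper into a rootlet that Triobp wraps and that anchors the bundle in the cuticular plate. Several of these genes cause deafness in people or mice when they are lost. Related genes of the same families, Fscn1 and Pls3, serve actin structures such as filopodia in many cell types outside hair cells.

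The sorted populations carried their labels: all 8 hair cell markers on a list of genes such as Atoh1, Pou4f3 and Myo7a were higher in control hair cells than in control non-hair cells, and all markers of mesenchyme (6 of 6), endothelium (4 of 4), macrophages (4 of 4) and Schwann cells (4 of 4) were lower. Supporting cell markers did not separate the populations in this way, since 2 of 8 were higher in hair cells and 0 lower, and their summed level ranged from 2846 to 3509 in control hair cells and from 2473 to 5117 in control non-hair cells. Of the 6 skeletal muscle genes tested 1 was higher and 2 were lower, and of 4 neuronal genes 0 were higher and 1 was lower. Single hair cell libraries also stood apart. In replicate 2 of the control hair cells the 6 mesenchyme markers lay at a median of 7.07% of their mean in control non-hair cells, against 2.81% and 2.69% in the other 2 control replicates, and results that rest on that library are also given without it. In replicate 2 of the treated hair cells the supporting cell markers summed to 1423, against 2316 and 2794 in the other treated replicates. The Schwann cell markers summed to 76.9 there, against 125 and 139. The marker lists were not counted without that treated library.

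The sequence before the transcription start is shown for the 3 genes with the largest difference between the populations and for Fscn1, the fascin that goes the other way. Each is the 250 bases upstream of the RefSeq start on GRCm38.p6, all on the plus strand, and capitals mark matches to the E-box letters CANNTG, the motif read by basic helix-loop-helix factors, the class to which Atoh1 belongs. Espnl is shown for chr1:91321825-91322074, Fscn2 for chr11:120361284-120361533, Xirp2 for chr2:67445752-67446001 and Fscn1 for chr5:142960105-142960354.
Espnl: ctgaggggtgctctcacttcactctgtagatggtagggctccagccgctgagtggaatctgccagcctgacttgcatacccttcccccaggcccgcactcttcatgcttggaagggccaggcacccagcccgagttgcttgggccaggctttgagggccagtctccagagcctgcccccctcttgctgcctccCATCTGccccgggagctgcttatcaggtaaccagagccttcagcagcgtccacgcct
Fscn2: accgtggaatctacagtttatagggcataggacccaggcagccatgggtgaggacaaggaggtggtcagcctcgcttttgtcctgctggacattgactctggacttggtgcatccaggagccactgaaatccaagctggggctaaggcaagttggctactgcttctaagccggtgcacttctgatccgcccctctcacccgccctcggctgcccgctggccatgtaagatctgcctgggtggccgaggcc
Xirp2: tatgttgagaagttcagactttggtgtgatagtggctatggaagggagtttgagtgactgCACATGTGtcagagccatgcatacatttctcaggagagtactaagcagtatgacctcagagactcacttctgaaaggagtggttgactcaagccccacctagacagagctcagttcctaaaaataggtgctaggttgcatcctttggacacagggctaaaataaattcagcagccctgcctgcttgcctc
Fscn1: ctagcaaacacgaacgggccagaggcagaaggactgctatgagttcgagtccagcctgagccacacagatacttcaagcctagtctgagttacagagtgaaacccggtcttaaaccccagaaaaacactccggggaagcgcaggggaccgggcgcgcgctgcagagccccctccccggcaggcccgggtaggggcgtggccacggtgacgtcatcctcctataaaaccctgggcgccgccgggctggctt
The Espnl window held 1 match and the Xirp2 window held 2 overlapping ones, whereas the windows of the paralogs Fscn2 and Fscn1 held 0 each. CANNTG is its own reverse complement in form, so 1 strand covers both, and 66.2% of 32851 promoter windows of the same length held at least 1 match. The narrower letters CAGCTG or CAGATG, searched on both strands, which all are CANNTG matches too, occurred in 25.5% of windows, in the Espnl window and not in the other 3. All members but Eps8 were matched to a RefSeq promoter. These are matches of letters only.

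The first comparison, between the control populations, asks which of these genes mark hair cells. In control hair cells 7 of the 10 were higher than in control non-hair cells and 2 were lower, at an adjusted p under 0.05 in limma with Benjamini-Hochberg adjustment over all genes tested. Of all genes tested 31.9% were called higher and 42.2% lower. The median log2 difference was 3.29 over the 10 genes and -0.12 over all genes tested. In the 9 called genes the replicates of the populations did not overlap, which held for 79.2% of all genes. In bulk samples such as these, fewer cells of a type and less RNA per cell cannot be told apart.

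**Figure D1:**
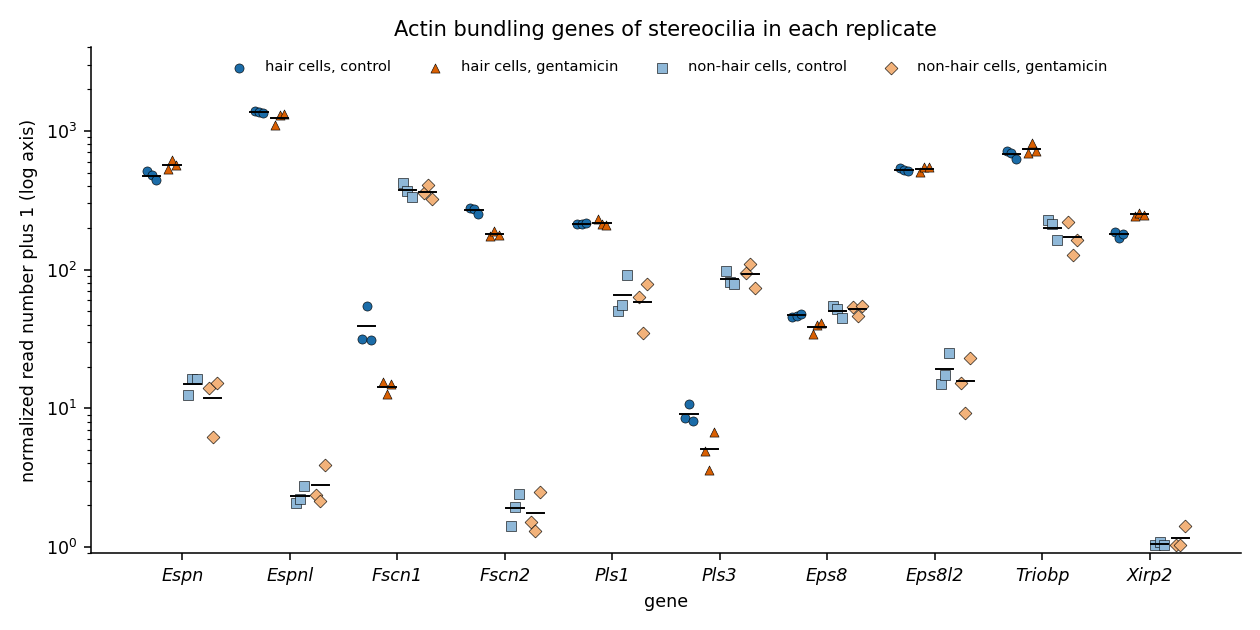
Normalized read number plus 1 (log axis) of each gene in each of the 3 replicates of the 4 groups; short bars are group means. Espnl, Fscn2 and Xirp2 lie at 1.04 to 3.92 in every non-hair cell replicate and at 169 or more in every hair cell replicate, Fscn1 and Pls3 are lower in hair cells than in non-hair cells, and the groups of Eps8 lie between 34.4 and 55.1.

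Espn (chr4:152120331-152152371, minus strand) encodes espin, a bundling protein whose loss shortens stereocilia and deafens mice. Its normalized read numbers were 510, 478 and 440 in the control hair cells and 12.5, 16.1 and 16.4 in the control non-hair cells. The log2 difference was 5.00 ± 0.27 (SE), with an adjusted p of 1.68e-08 in limma. Espnl (chr1:91322075-91348306, plus strand), the espin-like relative, was at 1391, 1367 and 1352 against 2.07, 2.23 and 2.74, and differed by 9.20 ± 0.19. With the offset of 1 it had the largest log2 difference of the 10 genes, whereas with the offset removed Xirp2, below, had the larger ratio. Its control hair cell replicates lay within a narrow band, with a coefficient of variation of 1.47%.

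The fascins split. Fscn2 (chr11:120361534-120368168, plus strand), the fascin of stereocilia and photoreceptors, was at 277, 274 and 251 in control hair cells and at 1.41, 1.95 and 2.39 in control non-hair cells, and differed by 7.15 ± 0.23 on the log2 scale (adjusted p 2.19e-10, limma). Fscn1 (chr5:142960343-142973185, plus strand), the fascin of filopodia, was at 31.8, 54.2 and 30.8 against 422, 371 and 332. It was lower in hair cells by a log2 difference of -3.31 ± 0.19 (adjusted p 3.09e-08, limma), and its highest hair cell value, in replicate 2, was still below every non-hair cell value.

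The plastins, also called fimbrins, split in the same manner. Pls1 (chr9:95752642-95845311, minus strand), the plastin of intestinal microvilli and stereocilia, was at 213, 214 and 217 in control hair cells and at 49.98, 55.7 and 91.4 in control non-hair cells. Its log2 difference of 1.76 ± 0.27 (adjusted p 8.60e-05, limma) was the smallest among the genes called higher, and non-hair cells kept 22.9% to 42.3% of the hair cell mean. Pls3 (chrX:75785654-75875182, minus strand), the widely expressed plastin, was at 8.47, 10.7 and 8.14 against 97.3, 80.9 and 78.7, lower by -3.24 ± 0.22. Fscn1 and Pls3 were thus the members of the list that were higher outside hair cells.

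Eps8 and Eps8l2 cap and bundle actin at the tips, Eps8 in the tallest row and Eps8l2 in shorter rows of the mature bundle. Eps8l2 (chr7:141338880-141363020, plus strand) was at 536, 520 and 515 in control hair cells and at 15.1, 17.5 and 25.1 in control non-hair cells, and differed by 4.80 ± 0.26 on the log2 scale. An unnamed gene on the opposite strand, B230206H07Rik, overlaps 32.2% of its exon bases, and 26.1% of its stretches of 50 bases, the read length, also occur in that gene. The strand of the reads is not given in the sources used here, so reads of the pair cannot be told apart. Eps8 (chr6:137477245-137654876, minus strand) was the only member not called. It was at 45.9, 46.6 and 48.2 against 55.1, 52.1 and 44.5, the populations overlapped, and the log2 difference was -0.10 with a 95% confidence interval of -0.32 to 0.12 (adjusted p 0.370, limma).

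Triobp (chr15:78947724-79005869, plus strand) makes the rootlet protein and, from other transcripts of the gene, a widely expressed actin-binding form, and gene totals do not separate these. It was at 717, 696 and 623 in control hair cells and at 226, 214 and 163 in control non-hair cells. It differed by 1.77 ± 0.18 on the log2 scale (adjusted p 3.37e-06, limma), so that non-hair cells held 23.9% to 33.2% of the hair cell mean. Xirp2 (chr2:67446002-67526614, plus strand), an actin-binding protein with Xin repeats that is known from striated muscle and from stereocilia, was at 188, 169 and 181 against 1.04, 1.08 and 1.04. These non-hair cell values rest on about 4 reads in all 3 libraries against 12149 in hair cells, which is a ratio of 3360 with a counting interval of 1312 to 12331 (95%, exact, counting error only), against 1011 (833 to 1240) for Espnl. With the offset kept the log2 difference was 7.41 ± 0.12. The 8 listed muscle genes summed to a level of 5.20 to 6.83 (offset removed) in control hair cells and 28.2 to 50.2 in control non-hair cells. Of these genes Mylpf, a myosin light chain, was called higher in hair cells (0.87), and its mean was 3.11 with the offset. The part of muscle cells in the Xirp2 level was not tested.

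Per kilobase of merged exons, the order in control hair cells was Espnl, Fscn2, Eps8l2, Espn, Triobp, Pls1, Xirp2, Fscn1, Eps8 and Pls3. Espnl stood at a level of 251 ± 3.69 normalized reads per kilobase (SD, n = 3), Fscn2 at 126 ± 6.70 and Eps8l2 at 97.2 ± 2.04, and the ranges of these levels did not overlap with each other or with the next gene. Espn at 57.5 ± 4.21, Triobp at 55.1 ± 4.01 and Pls1 at 54.9 ± 0.48 overlapped in turn, as did Xirp2 at 14.9 ± 0.79 and Fscn1 at 12.6 ± 4.400. Eps8 at 3.71 ± 0.096 and Pls3 at 1.91 ± 0.33 were the lowest. In control non-hair cells the order began with Fscn1 at 124 ± 15.0 per kilobase, followed by Pls3 at 19.96 ± 2.40, Pls1 at 16.6 ± 5.77 and Triobp at 16.2 ± 2.73, and the last 3 of these overlapped. The length counted moves these levels for the genes with several transcripts: over the longest transcript Eps8 stood at 10.05 and Espn at 103, and Eps8l2 at 156 overlapped with Fscn2 at 155, while Espnl stayed first.

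**Figure D2:**
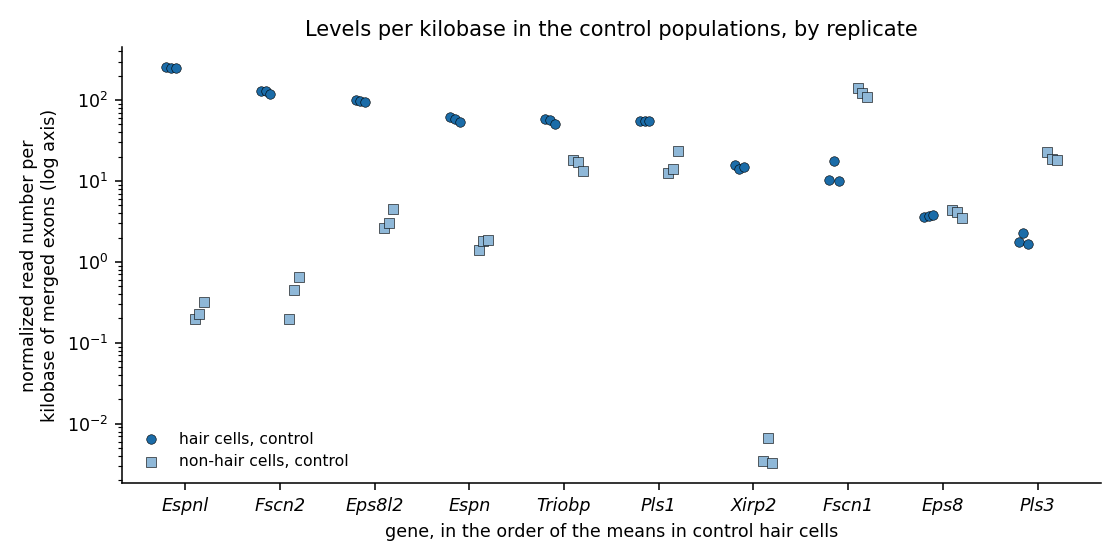
Normalized read number per kilobase of merged exons (log axis) for each gene in the 3 control replicates of each population, in the order of the hair cell means. Hair cell levels run from 251 for Espnl to 1.91 for Pls3, and the non-hair cell points of Fscn1 and Pls3 lie above the hair cell points.

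The second comparison asks what 3 h of gentamicin does to these genes in hair cells. Fscn1 and Pls3, the fascin and the plastin that are low in hair cells, fell further, and Xirp2 rose. These 3 of 10 passed the thresholds of the study, which ask for p under 0.01 without adjustment and for a fold change of more than 1.2 in either direction. The background in hair cells was 12.7% of all tested genes called higher and 14.8% called lower, so that 1 of 10 higher and 2 of 10 lower is close to what genes in general did. The median log2 difference was -0.065 over the members and -0.086 over all genes. In 7 of 10 members the treated and control replicates did not overlap, and that held for 54.8% of all genes. When reads were scaled to each replicate's total, 2775 genes were called higher and 1591 lower in place of 2037 and 2381, and the same number of members, 3, was called.

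**Figure D3:**
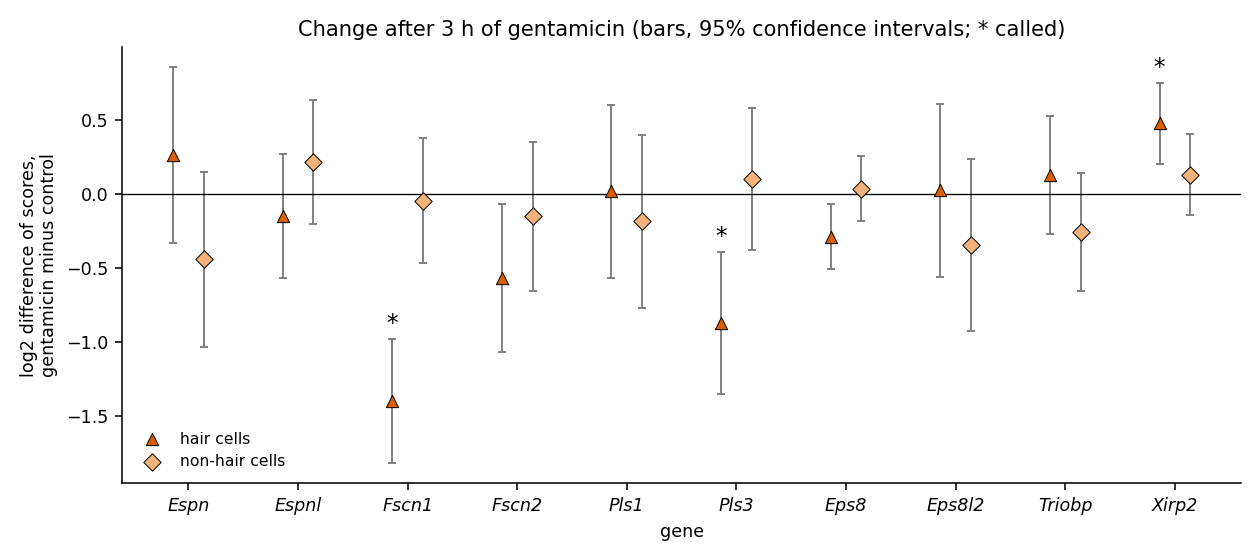
Log2 difference of normalized read numbers, gentamicin minus control, for each gene in hair cells (triangles) and non-hair cells (diamonds), with 95% confidence intervals from limma; stars mark genes past the thresholds. Fscn1 at -1.40, Pls3 at -0.87 and Xirp2 at 0.48 carry stars in hair cells, and every non-hair cell interval includes 0.

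Fscn1 stood at 15.5, 12.6 and 14.9 in the treated hair cells, against 31.8, 54.2 and 30.8 in the controls. Every treated replicate was below every control replicate, and the fold was 0.38, a log2 difference of -1.40 ± 0.19 (adjusted p 0.000413, limma). It was called under all alternatives tried, with log2 differences between -1.54 and -1.13, and without control replicate 2, its highest value, it was -1.13. Pls3 stood at 4.96, 3.59 and 6.77 in treated hair cells, against 8.47, 10.7 and 8.14. The groups again did not overlap, and the log2 difference was -0.87 ± 0.22 (adjusted p 0.0112, limma). Without control replicate 2 it was -0.75 with an unadjusted p of 0.0108, just past the threshold, so that its call rests on that library. With quantile normalization it was -0.60, with an unadjusted p of 0.0151. Without treated replicate 2, the lowest value of Pls3, it was -0.64 with an unadjusted p of 0.00861 (limma) and stayed called.

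Both genes were higher in control non-hair cells than in control hair cells. The markers of mesenchyme, endothelium, Schwann cells and macrophages were too, whereas 0 of 8 supporting cell markers were. After gentamicin some of these lists fell in hair cells and others did not. Over all genes tested 14.8% were called lower in hair cells after gentamicin. Of the mesenchyme markers 3 of 6 fell and 0 rose, with a median log2 difference of -0.85. Among these Col3a1, a fibrillar collagen, differed by -1.33, Col1a2 by -1.18 and Dcn, the proteoglycan decorin, by -0.69. Their summed level ranged from 193 to 472 in the control hair cells and from 107 to 159 in the treated ones, and none of the 6 was at 0. In the other lists 1 of 4 endothelial markers fell (median -0.75, summed level 11.8 to 20.1 in controls and 6.23 to 10.9 after gentamicin), as did 2 of 4 Schwann cell markers (median -0.44, 165 to 207, then 76.9 to 139) and 2 of 8 supporting cell markers (median -0.73, 2846 to 3509, then 1423 to 2794). Without control replicate 2, 1 of 6 mesenchyme markers was called lower, Col3a1 at -0.86, the list's median was -0.56 and its summed level in the controls was 193 to 213. The endothelial and Schwann cell lists then had 0 markers called, with medians of -0.51 and -0.31, and the supporting cell list kept 2, with a median of -0.74. Macrophage (0 of 4), muscle (0 of 6) and neuronal (0 of 4) markers were not called in hair cells, nor were the 8 hair cell markers, whose median was -0.23. The summed level of the hair cell markers ranged from 7895 to 8064 in control hair cells and from 5976 to 6857 in treated ones, so the sums did not overlap. Otof had the largest share of that sum, with a mean of 3899 in control and 2889 in treated hair cells. Atoh1 (0.50) and Gfi1 (0.18) had positive log2 differences, and the other markers on the list had negative ones.

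Expressed as a share of the mean in control non-hair cells, Fscn1 went from 8.23%, 14.2% and 7.97% in the control hair cells to 3.88%, 3.10% and 3.72% in the treated ones. For Pls3 the shares were 8.83%, 11.5% and 8.44%, and then 4.68%, 3.07% and 6.83%. The median mesenchyme marker went from 2.81%, 7.07% and 2.69% to 1.31%, 2.09% and 2.27%. Replicate 2 of the controls was highest in all 3, and the treated replicates were below the controls in all 3. The same held for the endothelial median, at 8.48%, 12.1% and 6.98%, and then 3.59%, 6.48% and 4.42%. It also held for the Schwann cell median, at 29.1%, 37.7% and 29.96%, and then 21.9%, 15.2% and 26.1%. The macrophage median did not fall. The part of RNA from other cells in the falls of Fscn1 and Pls3 was not tested.

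**Figure D4:**
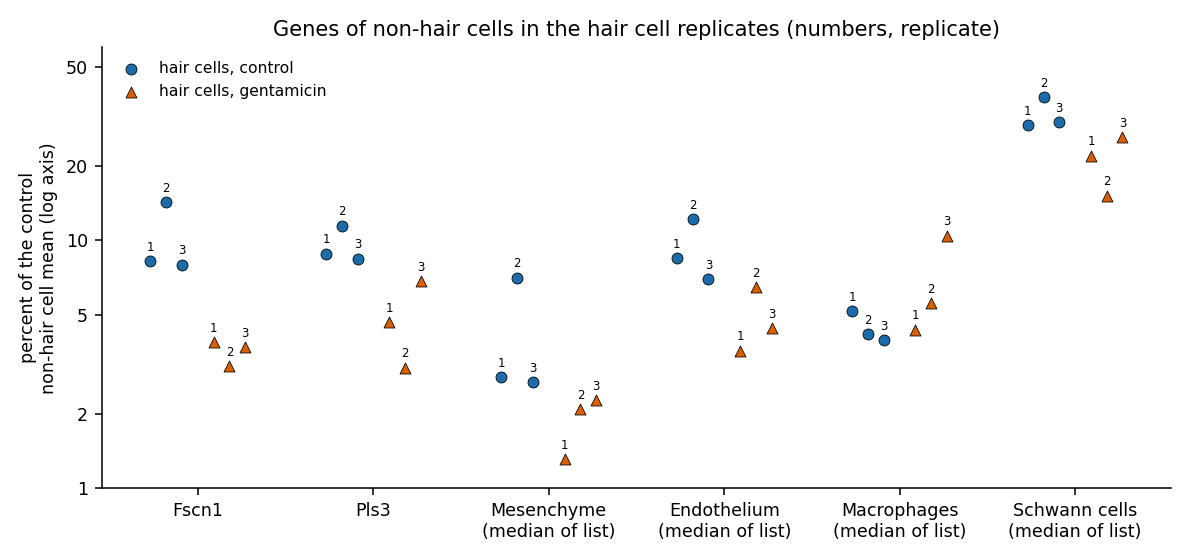
Level in each hair cell replicate as a percent of the mean in control non-hair cells (log axis) for Fscn1, Pls3 and the median marker of 4 other cell types; small numbers give the replicate. Control replicate 2 is highest for Fscn1, Pls3 and the mesenchyme, endothelium and Schwann cell medians. Their treated replicates all lie below the controls, whereas the macrophage median does not fall.

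Xirp2 was at 244, 258 and 247 in treated hair cells, against 188, 169 and 181. Every treated replicate was above every control replicate, with a fold of 1.39 and a log2 difference of 0.48 ± 0.12 (adjusted p 0.0134, limma). It was below a fold of 1.5, and its unadjusted p passed 0.01 without control replicate 2 (log2 difference 0.44, p 0.0148) and without treated replicate 2 (0.46, p 0.0121). With an offset of 0.1, the fit that includes the near-empty non-hair cell libraries gave the same log2 difference of 0.48 with an unadjusted p of 0.262. The 8 muscle genes summed to 4.31 to 6.64 in the treated hair cells, against 5.20 to 6.83 in the controls, and these ranges overlapped.

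Fscn2 and Eps8 lay on the edge of the thresholds. Fscn2 was at 174, 189 and 178 in treated hair cells, against 277, 274 and 251, so that the groups were far apart, with coefficients of variation of 4.43% and 5.29%. The fit that pools the spread of all 4 groups gave -0.57 ± 0.23 (unadjusted p 0.0300, adjusted p 0.0772, limma), and the fit of the hair cell groups alone gave the same difference with an unadjusted p of 2.65e-05. In non-hair cells, where the gene is near the offset, its coefficients of variation were 25.5% and 35.9%. Eps8 was at 34.4, 39.96 and 41.1, against 45.9, 46.6 and 48.2, a log2 difference of -0.29 ± 0.10 (unadjusted p 0.0144, adjusted p 0.0450, limma). It was called with the hair cell groups alone and at an adjusted p under 0.05.

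The remaining 5 genes were not called in hair cells. Espn was at 531, 619 and 566 in treated hair cells, all above its controls, with a log2 difference of 0.26 and a 95% confidence interval of -0.33 to 0.86. Espnl was at 1102, 1295 and 1326, all below its controls, at -0.15 (-0.56 to 0.27), and its sign turned to 0.084 with quantile normalization. Pls1 at 0.017 (-0.57 to 0.60), Eps8l2 at 0.024 (-0.56 to 0.60) and Triobp at 0.13 (-0.27 to 0.52) had treated and control replicates that overlapped. These intervals leave room for changes of either sign, but they pool the spread of all 4 groups. For Espn the coefficients of variation were 7.31% and 7.81% in hair cells, against 14.3% and 41.8% in non-hair cells. The fit of the hair cell groups alone gave Espn the same difference with an unadjusted p of 0.0183 (limma), still not called. In that fit Espnl, Pls1, Eps8l2 and Triobp had unadjusted p-values of 0.212 to 0.774 (limma).

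Ratios of paralogs within a replicate do not depend on how that replicate was scaled. The log2 ratio of Fscn2 to Fscn1 was 3.16, 2.36 and 3.07 in control hair cells and 3.57, 4.02 and 3.67 after gentamicin, a rise of 0.89 in the mean. The ratio of Pls1 to Pls3 was 4.83, 4.46 and 4.92, and then 5.86, 6.36 and 5.17, which is higher by 1.0597. The ratio of Espn to Espnl was -1.45, -1.52 and -1.62, and then -1.056, -1.07 and -1.23, higher by 0.41, while neither gene was called on its own. The ratio of Eps8 to Eps8l2 was -3.58, -3.51 and -3.45, and then -3.91, -3.82 and -3.76, a difference of -0.32. In all 4 pairs the 3 treated replicates lay on one side of the 3 controls. An exact two-sided permutation test gave p = 0.10 for each pair, the smallest that 3 against 3 allows, and 0.10 after adjustment over the 4 pairs, so none could pass 0.05.

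**Figure D5:**
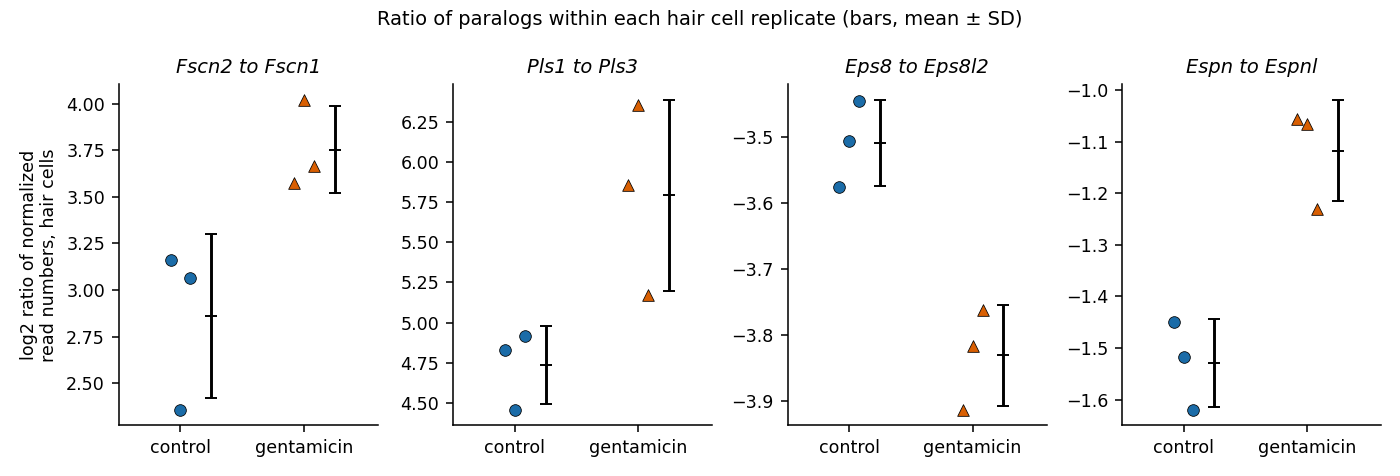
Log2 ratio of normalized read numbers of 4 pairs of paralogs in each hair cell replicate, control (circles) and gentamicin (triangles), with the mean and SD beside the points; each panel has its own scale. Fscn2 to Fscn1, Pls1 to Pls3 and Espn to Espnl are higher in the 3 treated replicates, and Eps8 to Eps8l2 is lower.

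The third comparison is the same treatment in non-hair cells, where 0 of the 10 genes passed the thresholds, and 0 had an unadjusted p under 0.05 in limma. In this population 3.18% of all genes were called higher and 2.26% lower. The treated and control replicates overlapped in all 10 members, and 17.7% of all genes had groups that did not overlap. Fscn1 was at 358, 407 and 324 after gentamicin, against 422, 371 and 332, a log2 difference of -0.046 (95% confidence interval -0.47 to 0.38). Pls3 was at 93.8, 110 and 74.0, against 97.3, 80.9 and 78.7, at 0.10 (-0.38 to 0.58). For the genes of hair cells the spread was wide: Espn was at 14.1, 6.16 and 15.3, Eps8l2 at 15.1, 9.30 and 22.9, Pls1 at 62.9, 35.1 and 78.4 and Triobp at 221, 126 and 165. Treated replicate 2 was the lowest of its group for each of these 4 genes. Its hair cell markers summed to 78.4, against 148 and 268 in the other treated replicates, and its supporting cell markers to 2265, against 3227 and 4589. Its mesenchyme markers summed to 9370, against 7412 and 5863, and it was the highest of its group for Fscn1 and Pls3.

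The low level of hair cell genes in the GFP-negative cells differed from gene to gene. As a percent of the control hair cell mean, the 3 control non-hair cell replicates held 0.022% to 0.044% for Xirp2, 0.079% to 0.13% for Espnl, 0.16% to 0.52% for Fscn2, 2.43% to 3.23% for Espn and 2.69% to 4.60% for Eps8l2. The median of the 8 hair cell markers was 0.28%, 0.42% and 0.43%. Espn and Eps8l2 were thus above the median marker in all 3 control replicates, though 2 markers on the list, Cdh23 at 3.87% to 8.51% and Calb2 at 17.9% to 36.7%, stood higher than both in each of these replicates.

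A direct test of whether the 2 populations responded differently followed. The interaction was called for 1 of the 10 genes, Fscn1, at -1.35 ± 0.27 (adjusted p 0.0103, limma), with -1.40 in hair cells and -0.046 in non-hair cells. Without control replicate 2 it was -1.09 and stayed called. Of the marker lists, 2 had median interactions of similar size. The median was -1.24 for mesenchyme, where Dcn was called (-0.84) and Col1a2 and Col3a1 at -1.60 and -1.47 were not. It was -1.04 for endothelium, where Cldn5 was called (-1.11). Without control replicate 2 these medians were -0.84 and -0.82 and 0 markers of either list were called. The other lists had 0 markers called for the interaction. Their medians were -0.54 for supporting cells, -0.44 for Schwann cells, -0.21 for muscle, -0.017 for hair cells, 0.043 for macrophages and 0.76 for neurons. The part of other cells in the interaction of Fscn1 was not tested. Of all genes 6.85% had a response called higher in hair cells and 6.57% one called lower. With reads scaled to each total these calls split into 1500 higher and 717 lower in place of 1102 and 1056. Pls3 had a difference of -0.97 ± 0.31 (unadjusted p 0.00907, adjusted p 0.0602, limma), and Eps8 one of -0.33 ± 0.14 (adjusted p 0.148). Xirp2 was at 0.35 ± 0.18 (adjusted p 0.209, limma), so a difference between the populations in the response of Xirp2 was not shown. Espn and Pls1, at 0.70 and 0.20, were not called, and without treated non-hair cell replicate 2 they were at 0.29 and -0.13.

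The other actin genes of stereocilia were counted from lists chosen with earlier results of these data known, so their counts are descriptive only. Over all genes tested 12.7% were called higher and 14.8% lower in hair cells after gentamicin, with a median log2 difference of -0.086. Of 9 tested genes that act at the tip or set stereocilia length, 5 rose and 0 fell, with a median of 0.37. Those 5 were Myo3a, a tip myosin (0.69), Gnai3, a G protein subunit that patterns the hair bundle (0.64), Twf2, a twinfilin of shorter rows (0.44), Baiap2l2, a tip protein that curves membranes (0.43), and Gpsm2, a partner of Gnai3 (0.37). Myo15, the motor that delivers Eps8 to the tips, was at 1155 ± 69.0 (SD, n = 3) in control and 862 ± 106 in treated hair cells and did not pass (adjusted p 0.111, limma). Without control replicate 2 the calls were 4 higher and 1 lower, with Baiap2l2 lost (0.43) and Capzb added (-0.26). In non-hair cells 0 of these 9 were called higher and 1 lower, Baiap2l2, against 3.18% and 2.26% of all genes. The difference of the responses was called higher for 2, Baiap2l2 and Gnai3, and lower for 1, Capzb, against 6.85% and 6.57% of all genes. Between the control populations 7 were higher in hair cells and 2 lower, against 31.9% and 42.2% of all genes. The values ran from Myo15 at 9.18 and Myo3a at 7.51 to Capzb, a capping protein subunit, at -0.28 and Gnai3 at -0.63.

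Of 13 tested genes of the actin core, taper, base and cuticular plate, 1 rose and 1 fell in hair cells. Of all genes 12.7% were called higher there and 14.8% lower. Dfnb59, which encodes pejvakin, a protein of the stereocilia base and peroxisomes, rose by 0.76, and Tprn, which encodes taperin, differed by -0.32 and was not called without control replicate 2 (-0.29). The core actins Actb (-0.37, adjusted p 0.0582) and Actg1 (-0.30, adjusted p 0.166) did not pass in limma. In non-hair cells 0 of 13 were called, against 3.18% higher and 2.26% lower of all genes. The difference of the responses was called higher for 1, Dfnb59, and lower for 0, against 6.85% and 6.57% of all genes. Between control populations 10 were higher in hair cells and 1 lower, against 31.9% and 42.2% of all genes. Grxcr2 at 8.14 and Ptprq at 7.96 were at the top and Actb at -0.91 and Actg1 at -0.28 at the bottom.

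General actin cross-linkers and membrane linkers went the other way. In hair cells 0 of 17 tested rose and 7 fell, with a median of -0.29, against 12.7% and 14.8% of all genes. Between the control populations 11 of the 17 were lower in hair cells and 3 higher, against 42.2% and 31.9% of all genes. The 5 largest falls were Msn, the membrane linker moesin (-0.91), Synpo, synaptopodin (-0.73), Tagln2, a calponin relative (-0.73), Flna, filamin A (-0.46), and Sptan1, a spectrin subunit (-0.41). Between the control populations Ezr at 1.30 and Lima1 at 1.19 were the highest, and Anln at -3.46 and Tagln2 at -3.18 the lowest. Msn was at -3.10. These low values are close to those of Fscn1 and Pls3, yet Anln was not called in hair cells after gentamicin (-0.32). Marcks (-2.14 between the control populations) and Dbn1 (-1.47) were not called after gentamicin either, at -0.39 and -0.20. The part of RNA from other cells in the falls of this list was not tested. Without control replicate 2, 4 of the 17 were called lower in hair cells, with a median of -0.27, and 2 for the interaction. In non-hair cells 1 was called higher, Flna at 0.42, and 0 lower, against 3.18% and 2.26% of all genes. The difference of the responses was called lower for 4 and higher for 0, against 6.57% and 6.85% of all genes. Sptan1, at 0.65 between the control populations, was higher in hair cells and also fell.

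Of 5 further paralogs of the 10 genes, Eps8l3 and Xirp1 had too few reads to be tested. Fscn3, a fascin known from testis, went from 1.12 ± 0.071 to 3.49 ± 0.58 (SD, n = 3) in hair cells, a log2 difference of 1.63 (adjusted p 2.11e-05, limma), and stayed at 1.09 and 1.11 in non-hair cells, with a called difference of the responses. This remained close to the offset of 1. Lcp1, the plastin of blood cells, went from 2.67 to 1.85 (log2 difference -0.53), and was not called without control replicate 2 (-0.42). It was 19.4 in control non-hair cells. Eps8l1 was not called in hair cells after gentamicin (-0.59, adjusted p 0.192, limma). Between the control populations Lcp1 and Eps8l1 were lower in hair cells and 0 were higher, against 42.2% and 31.9% of all genes. In non-hair cells 0 of the 3 tested were called after gentamicin, against 3.18% higher and 2.26% lower of all genes.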

How the data were processed

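Normalized read scores were analysed for hair cells and non-hair cells, control and gentamicin-treated, with 3 replicates a group. Single-end reads of 50 bp were quality-trimmed and aligned by the authors with TopHat2 (PartekFlow, mm10). The deposited score of a gene is a scaled read number plus 1. The methods name RPKM, yet no length division is seen in the values. Only 83.3% to 84.5% of low values came out as whole reads (tolerance 0.1), so the groups were not compared with a count model. The counting intervals of Xirp2 and Espnl use recovered reads rounded to whole numbers. Strand and gene annotation are not given in the sources used here.

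Log2 scores were fitted with limma 3.58.1 (R 4.3.3), 4 groups in 1 model with a variance trend, on genes with at least 100 recovered reads; limma's tests are two-sided, with Benjamini-Hochberg adjusted p-values over all 16076 genes. Gentamicin calls need p under 0.01 unadjusted and more than a 1.2-fold change; population and interaction calls use an adjusted p under 0.05. The fit was also run on simulated data. These had the same added spread between replicates in every group, so they do not bear on genes whose spread differs between the groups. Positions, lengths and overlaps come from GENCODE M21 and promoters from RefSeq (GRCm38.p6). Other steps used Python 3.11.15 and scipy 1.17.1. Per kilobase values and paralog ratios have the offset removed.

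The 10 members, the 4 lists of other actin genes and the marker lists were chosen with earlier results of these data known. All members are named, with at most 5 genes a list called in hair cells (the largest changes) and the 2 highest and 2 lowest between control populations. Other genes given were chosen after their values were seen. These are Myo15, Actb, Actg1, Anln, Marcks and Dbn1 after gentamicin, Eps8l1, the population values of Msn, Marcks, Dbn1 and Sptan1, and single markers. Myo15a and Diaph1 were listed but matched no row. The study calls the replicates biological; the labels give 1 sample a group, so replicate numbers come from column headers, and p-values measure the spread between these replicates. Counting intervals cover counting error only. Alternatives tried were other scalings, offset, read minimum, variance model, replicate block, groups alone, call rules and each replicate left out. Counting the lists without control hair cell replicate 2 was added after seeing the data. Deviations from the group means of same-numbered replicates correlated at 0.20 to 0.32 between the control populations. For that comparison the header numbers were therefore taken to pair the samples. Different numbers gave -0.055 to -0.27, but taking out the group means forces negative values there when same numbers correlate. The population values printed come from the fit without pairing, and the fit with the replicate block is given below.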

Additional observations from a re-analysis of the deposited data

Results flagged for a closer look

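Fscn1 is listed because its response to gentamicin differed between the 2 populations in a test of the difference itself. The difference of the responses was -1.35 on the log2 scale (95% confidence interval -1.95 to -0.75, adjusted p 0.0103, limma), from -1.40 in hair cells and -0.046 in non-hair cells. It kept its sign and its call under all 21 alternatives, with a range of -1.49 to -1.09. Without control hair cell replicate 2, which stood apart in Fscn1 and in mesenchyme markers, it was -1.09. Mesenchyme and endothelial markers had median interactions of -1.24 and -1.04, with Dcn (-0.84) and Cldn5 (-1.11) called, and their part in the result was not tested. The medians of the other marker lists ran from -0.54 for supporting cells to 0.76 for neurons, with 0 markers called.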

How the results depend on the processing

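Against the 3 members called in hair cells after gentamicin, 5 were called when the 2 hair cell groups were fitted alone (Fscn2 and Eps8 were added), and the count ran from 1 to 3 with each replicate left out, the lowest without control replicate 2, where Fscn1 was left. The other alternatives gave 2 to 4. The interaction was called for 1 member, for 2 at an unadjusted p under 0.01 (Pls3 was added), and for 1 to 3 with a replicate left out, the highest without treated non-hair cell replicate 3 (Pls3 and Xirp2 were added) and 2 without treated hair cell replicate 3. In non-hair cells the count was 0, and between the control populations 9, under every alternative run. Signs turned for members that were not called. Espnl in hair cells was 0.084 with quantile normalization, the interaction of Xirp2 was -0.019 with an offset of 0.1, and Eps8 between the control populations was 0.020 after scaling by the median ratio, which moved the median of all genes from -0.12 to -0.013. With replicates left out, Pls1 ran from -0.024 to 0.046 in hair cells and from -0.13 to 0.45 for the interaction. In non-hair cells Espnl ran from -0.054 to 0.38, Fscn1 from -0.13 to 0.043, Fscn2 from -0.43 to 0.041, Pls1 from -0.43 to 0.15, Pls3 from -0.033 to 0.25, Eps8 from -0.054 to 0.11 and Xirp2 from -0.021 to 0.21. Fits that leave out a replicate rest on fewer samples; for the other changes the cause was not tested. Paralog ratios kept their signs throughout. With a fold change above 1.5, 855 genes were called higher and 1219 lower in hair cells, against 2037 and 2381, and at an adjusted p under 0.05 there were 38 and 17 in non-hair cells, against 512 and 363.

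With the replicate number as a block, 3 members were called in hair cells, 0 in non-hair cells, 1 for the interaction and 9 between the control populations, as without it. Same-numbered control and treated replicates correlated at 0.037 to 0.052 in hair cells and at -0.23 to 0.68 in non-hair cells, so for the gentamicin comparisons the numbers were not taken to pair the samples. Between the control populations, where they were, the block changed no call. Few reads limit Xirp2, Fscn2 and Espnl in non-hair cells, where the offset compresses their differences.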
